A study of Homo sapiens with 8 samples.

Results

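The 10 genes described here encode the protein cores of matrix and cell-surface proteoglycans: BGN (biglycan), DCN (decorin), LUM (lumican), VCAN (versican), HSPG2 (perlecan), GPC1 (glypican-1), SDC1, SDC2 and SDC4 (syndecans) and CSPG4 (NG2). They were chosen by symbol from 58336 Ensembl gene identifiers after results of these same libraries were known, so their levels are a description and carry no test of their own. All 10 were found in the count table. LUM had too few counts to be tested, so 9 of the 10 were among the 15220 genes that entered the fit.

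Polyadenylated RNA was sequenced from SUM159 cells, a long-established line from a human breast cancer that lacks hormone receptors and HER2 amplification. The lung-recovered group (3 libraries, 21.03 to 26.30 M counts) was ITGB4-low clone 1 given to mice by tail vein. Bleomycin, which causes lung injury and inflammation, was instilled into the trachea of those mice. Cells of the dissociated lungs were kept in culture overnight before tumour cells were sorted by their tdTomato fluorescence. The ITGB4-low group (3 libraries, 20.41 to 24.89 M counts) was the same clone 1 grown in dishes, and the ITGB4-high group (2 libraries, 25.92 to 27.22 M counts) was grown in dishes too. The ITGB4-low state and the traits of clone 1 cannot be told apart, since every ITGB4-low and lung-recovered library came from this 1 clone. Bleomycin, passage through the lung, dissociation, overnight culture and sorting cannot be told apart either, because all lung-recovered libraries went through all of them. The titles call the libraries of a group biological replicates. No label ties a replicate to a culture or an animal, so p-values measure only the spread between these libraries, which may be technical in part. By its title, the study asks how inflammation affects dormant cancer cells and their epithelial-mesenchymal state.

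Proteoglycans are core proteins that carry long, sulfated sugar chains, either heparan sulfate or chondroitin and dermatan sulfate. Biglycan, decorin and lumican are small leucine-rich proteins of the collagenous matrix, versican binds hyaluronan, and perlecan is a large component of basement membranes. Syndecans and glypican-1 sit on the cell surface, where their heparan sulfate acts as a co-receptor for growth factors, and NG2 is a transmembrane chondroitin sulfate proteoglycan found on progenitor cells and pericytes. Syndecan-1 is typical of epithelial cells, whereas versican and NG2 are often high in mesenchymal cells.

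ITGB4, the integrin beta 4 gene after which the groups are named, followed the labels of the dish-grown cells. It stood at 401, 375 and 407 CPM (counts per M counts of the library) in the lung-recovered libraries, 5.29, 7.45 and 9.13 CPM in the ITGB4-low libraries, against 419.6 and 376 CPM for ITGB4-high. Levels in CPM were scaled by TMM, a factor that corrects for composition. PGR, the progesterone receptor, was at 0 counts in all 8 libraries. The other receptors looked up, ESR1 (estrogen receptor) and ERBB2 (HER2), were not at 0 in any group.

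The proteoglycans did not share 1 pattern. BGN was near 0 in both dish-grown groups and present in lung-recovered cells. VCAN and CSPG4 were high in both groups of clone 1 and low in ITGB4-high cells. SDC1, SDC4 and DCN were lower in ITGB4-low than in ITGB4-high cells, and HSPG2 was higher in ITGB4-low cells. In lung-recovered cells SDC4 and HSPG2 stood close to ITGB4-high, SDC1 lay between the dish-grown groups and DCN stayed close to ITGB4-low. GPC1 and SDC2 varied little. Set against ITGB4-low, lung-recovered cells had 3 of the 9 tested proteoglycans called higher (BGN, SDC1, SDC4), beside 14.7% of all genes tested, and 3 called lower (CSPG4, HSPG2, VCAN), beside 15.4% of all genes. ITGB4-low cells against ITGB4-high had 3 called higher (CSPG4, HSPG2, VCAN), beside 28.6% of all genes, and 4 called lower (BGN, DCN, SDC1, SDC4), beside 27.6%. Lung-recovered cells against ITGB4-high had 3 called higher (BGN, CSPG4, VCAN), beside 26.2%, and 2 called lower (DCN, SDC1), beside 25.0%. A call means an adjusted p under 0.05 in edgeR's quasi-likelihood test with Benjamini-Hochberg adjustment over all 15220 genes. Nothing is read from these counts, because the genes were picked with their values known. The comparisons also share groups, so the same ITGB4-low libraries enter 2 of the 3.

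**Figure D1:**
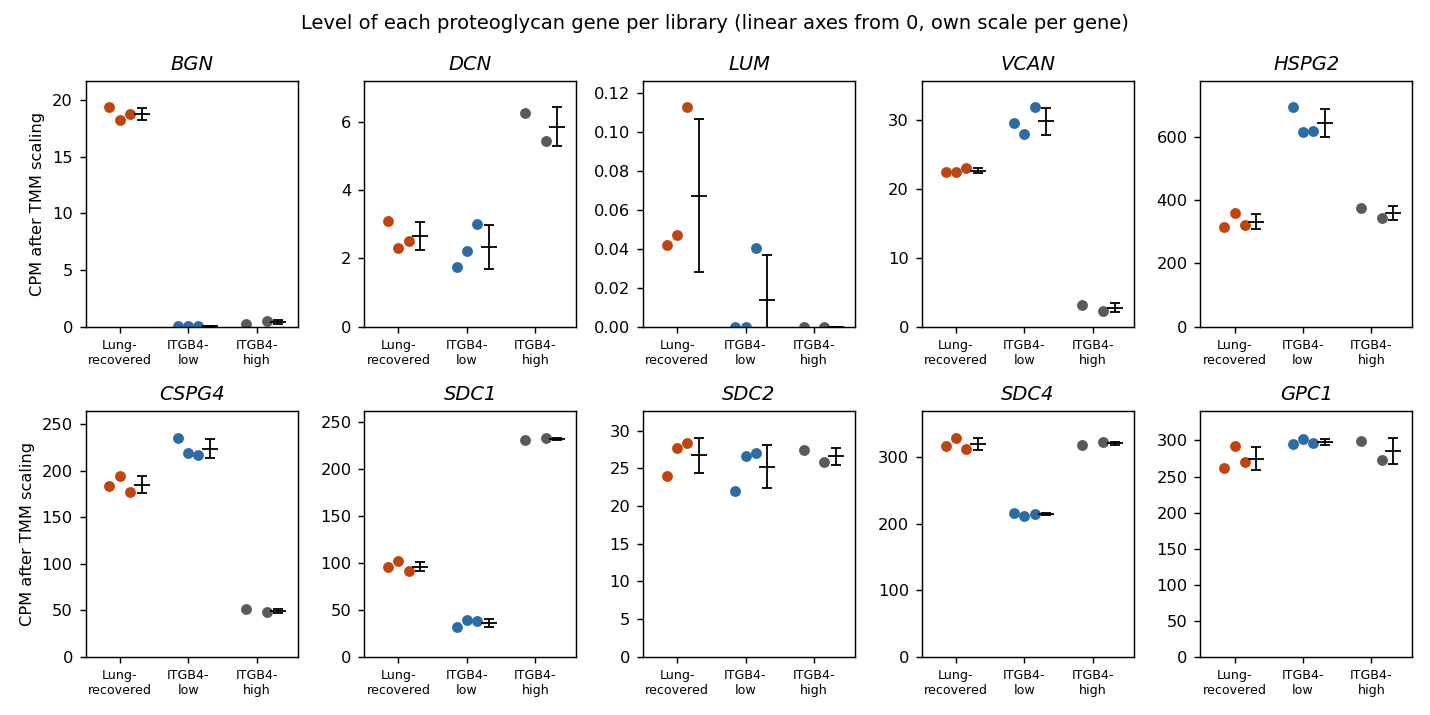
Level of each proteoglycan in CPM (linear axis from 0, 1 panel per gene) for lung-recovered, ITGB4-low and ITGB4-high libraries. Points are single libraries, with the group mean and SD. BGN stands at 18.2 to 19.4 CPM in the lung-recovered libraries and below 1 CPM in all others, while SDC1 is highest and VCAN and CSPG4 lowest in the ITGB4-high libraries.

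Among the small leucine-rich proteoglycans, BGN (ENSG00000182492, hg38 chrX:153494939-153509554, plus strand) had the widest range of the tested members as a fold between groups. Its level was 19.4, 18.2 and 18.7 CPM in the lung-recovered libraries (461, 386 and 499 counts). It was 0.0485, 0.0469 and 0.0402 CPM in the ITGB4-low libraries, which is 1 count in each, and 0.264 and 0.506 CPM, from 7 and 13 counts, in the ITGB4-high libraries. Every lung-recovered library was thus above every dish-grown one. The 1346 counts in lung-recovered cells against 3 in ITGB4-low cells gave a ratio of 419, with an exact binomial 95% counting interval of 143 to 2033. Lung-recovered cells stood above ITGB4-high by 5.60 on the log2 scale (SE 0.19). The 3 counts in ITGB4-low against 20 in ITGB4-high put ITGB4-high above ITGB4-low by a ratio of 8.53 (2.53 to 44.8). These intervals cover counting error only. HAUS7, a gene of the opposite strand that overlaps BGN, had 67 to 135 counts in every library, and BGN itself was at 1 count in the ITGB4-low ones.

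Lung fibroblasts express BGN, DCN and LUM too, and 14 lung fibroblast markers were summed in each library. It came to 394 to 423 CPM in the lung-recovered libraries, 467 to 513 CPM in the ITGB4-low libraries and 256 to 291 CPM in the ITGB4-high libraries. Most of the sum was FBLN1 (fibulin-1), which dish-grown cells expressed as well. It was at 289 CPM in lung-recovered, 441 CPM in ITGB4-low and 242 CPM in ITGB4-high cells. Between ITGB4-low and lung-recovered cells the sum thus combines a fall of FBLN1 with a rise of COL1A1, given below. Markers in the list differed in direction between lung-recovered and ITGB4-low cells. Of the 6 that were tested, FBLN1 (log2 difference -0.61), PDGFRB (-0.37), COL13A1 (-1.35) and SCARA5 (-1.06, libraries overlapping) were called lower. COL1A1 and COL3A1 were called higher. COL1A1, a chain of type I collagen, was higher in lung-recovered cells as BGN was, at 98.2, 107 and 98 CPM in the lung-recovered libraries, 29.3, 30.4 and 32.4 CPM in the ITGB4-low libraries and 30 and 26.2 CPM in the ITGB4-high libraries. COL3A1, the chain of type III collagen, was higher as well, at 1.83 CPM in lung-recovered and 0.490 CPM in ITGB4-low cells (log2 difference 1.89, SE 0.30). TCF21 had 7 counts in lung-recovered and 0 in ITGB4-low cells, and MFAP4 had 5 and 0 in the same groups. Neither TCF21 nor MFAP4 was at 0 in the dish-grown ITGB4-high group. COL1A2, the partner chain of COL1A1, had 3 counts in lung-recovered and 1 in ITGB4-low cells. PI16 was the only marker of the 14 at 0 in all lung-recovered libraries. The part of fibroblast RNA in the BGN level was not tested. The macrophage and myeloid list summed to 5.92 to 6.73 CPM in the lung-recovered libraries and 5.27 to 5.92 CPM in the ITGB4-low ones. In the ITGB4-high ones it summed to 3.08 to 3.69 CPM. Most of this was CD68, at 4.92 CPM in lung-recovered, 4.19 CPM in ITGB4-low and 2.71 CPM in ITGB4-high cells. PTPRC was at 0.780, 0.864 and 0 CPM in the same order. AIF1, C1QA and C1QB were at 0 in every group, and LYZ was at 0 in the lung-recovered and ITGB4-high groups. The endothelial list summed to 16.9 to 17.0 CPM in the lung-recovered libraries, 14.7 to 16.6 CPM in ITGB4-low and 21.5 to 22.2 CPM in ITGB4-high. The lung epithelial list summed to 0.709 to 1.22, 1.60 to 2.05 and 0.716 to 1.17 CPM in the same order. SFTPB was at 0 in both dish-grown groups but not in lung-recovered cells, while NKX2-1 was lower in lung-recovered than in ITGB4-low cells. The lymphocyte and erythroid lists reached at most 0.201 CPM. How far these lists, read on human genes, would detect mouse cells was not tested. In bulk samples, fewer cells that express a gene and less RNA per cell cannot be told apart.

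DCN (ENSG00000011465, chr12:91140484-91183123, minus strand), which binds collagen and TGF-beta, was at 3.11, 2.32 and 2.52 CPM in the lung-recovered libraries, 1.75, 2.20 and 3.02 CPM in the ITGB4-low libraries and 6.26 and 5.45 CPM in the ITGB4-high libraries. The groups of clone 1 overlapped and both ITGB4-high libraries were above them. DCN was lower in lung-recovered than in ITGB4-high cells by a log2 difference of -1.14 (SE 0.19) and lower in ITGB4-low than in ITGB4-high cells by -1.31 (SE 0.19), and the difference between lung-recovered and ITGB4-low cells was 0.17 (SE 0.20), which did not pass. LUM (ENSG00000139329, chr12:91102629-91111831, minus strand), its neighbour on chromosome 12, had 1, 1 and 3 counts in the lung-recovered libraries, 0, 0 and 1 in the ITGB4-low libraries and 0 in both ITGB4-high libraries. Its total of 5 counts in lung-recovered cells against 1 in ITGB4-low cells gave a ratio of 4.67 with an interval of 0.522 to 221, so no difference was detectable at this depth.

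VCAN (ENSG00000038427, chr5:83471465-83582303, plus strand), a hyaluronan-binding chondroitin sulfate proteoglycan of provisional matrix, was at 22.4, 22.5 and 23.0 CPM in the lung-recovered libraries, 29.6, 28.0 and 31.8 CPM in the ITGB4-low libraries and 3.17 and 2.26 CPM in the ITGB4-high libraries. No group overlapped another. The log2 difference was -0.40 (SE 0.07) for lung-recovered against ITGB4-low, 3.45 (SE 0.12) for ITGB4-low against ITGB4-high and 3.06 (SE 0.12) for lung-recovered against ITGB4-high.

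CSPG4 (ENSG00000173546, chr15:75674322-75712848, minus strand) had the same order of groups at a higher level. It was at 183, 194 and 177 CPM in the lung-recovered libraries, 236, 219 and 217 CPM in the ITGB4-low libraries and 50.9 and 47.7 CPM in the ITGB4-high libraries. Lung-recovered cells were below ITGB4-low by -0.27 on the log2 scale (SE 0.05), ITGB4-low cells were above ITGB4-high by 2.18 (SE 0.06), and lung-recovered cells were above ITGB4-high by 1.91 (SE 0.06). The CSPG4 pseudogenes held at most 2 counts in any library.

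HSPG2 (ENSG00000142798, chr1:21822245-21937297, minus strand), the basement-membrane heparan sulfate proteoglycan, was at 316, 358 and 320.5 CPM in the lung-recovered libraries, 694, 616 and 618 CPM in the ITGB4-low libraries and 375 and 343 CPM in the ITGB4-high libraries. The lung-recovered and ITGB4-high libraries overlapped, and all ITGB4-low libraries were above both. The log2 difference was -0.96 (SE 0.06) for lung-recovered against ITGB4-low and 0.84 (SE 0.06) for ITGB4-low against ITGB4-high. Lung-recovered against ITGB4-high gave -0.12 (SE 0.06), which was not called in the fit used here but was called at -0.17 without lung-recovered library 2, the highest of its group, and at -0.12 without the filter on low counts.

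The syndecans went separate ways. SDC1 (ENSG00000115884, chr2:20200797-20225433, minus strand) was at 95, 102 and 91.2 CPM in the lung-recovered libraries, 31.4, 38.6 and 38.0 CPM in the ITGB4-low libraries and 231 and 233 CPM in the ITGB4-high libraries. Lung-recovered cells thus lay between the dish-grown groups with no overlap, above ITGB4-low by 1.41 on the log2 scale (SE 0.06) and below ITGB4-high by -1.27 (SE 0.06). ITGB4-low cells were below ITGB4-high by -2.68 (SE 0.07). SDC4 (ENSG00000124145, chr20:45325288-45348424, minus strand), the syndecan of focal adhesions, was at 317, 329 and 312 CPM in the lung-recovered libraries, 216, 212 and 215 CPM in the ITGB4-low libraries and 319 and 323 CPM in the ITGB4-high libraries. Its lung-recovered and ITGB4-high libraries overlapped, with a log2 difference of -0.0056 (SE 0.04), while ITGB4-low lay below both, with 0.58 (SE 0.04) for lung-recovered against ITGB4-low and -0.58 (SE 0.04) for ITGB4-low against ITGB4-high. SDC2 (ENSG00000169439, chromosome 8) was at 24.0, 27.7 and 28.4 CPM in the lung-recovered libraries, 21.9, 26.6 and 27.1 CPM in the ITGB4-low libraries and 27.4 and 25.8 CPM in the ITGB4-high libraries. All 3 groups of SDC2 overlapped and no comparison called it.

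GPC1 (ENSG00000063660, chr2:240435671-240468078, plus strand), which is tied to the membrane by a lipid anchor, was at 262, 293 and 269.8 CPM in the lung-recovered libraries, 295, 302 and 297 CPM in the ITGB4-low libraries and 299 and 273 CPM in the ITGB4-high libraries. Its log2 differences were -0.12 (SE 0.05) for lung-recovered against ITGB4-low, 0.06 (SE 0.05) for ITGB4-low against ITGB4-high and -0.06 (SE 0.05) for lung-recovered against ITGB4-high, and none was called. The first was called, at -0.16, when lung-recovered library 2 was left out. A difference that misses the threshold does not show that the groups are alike.

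**Figure D2:**
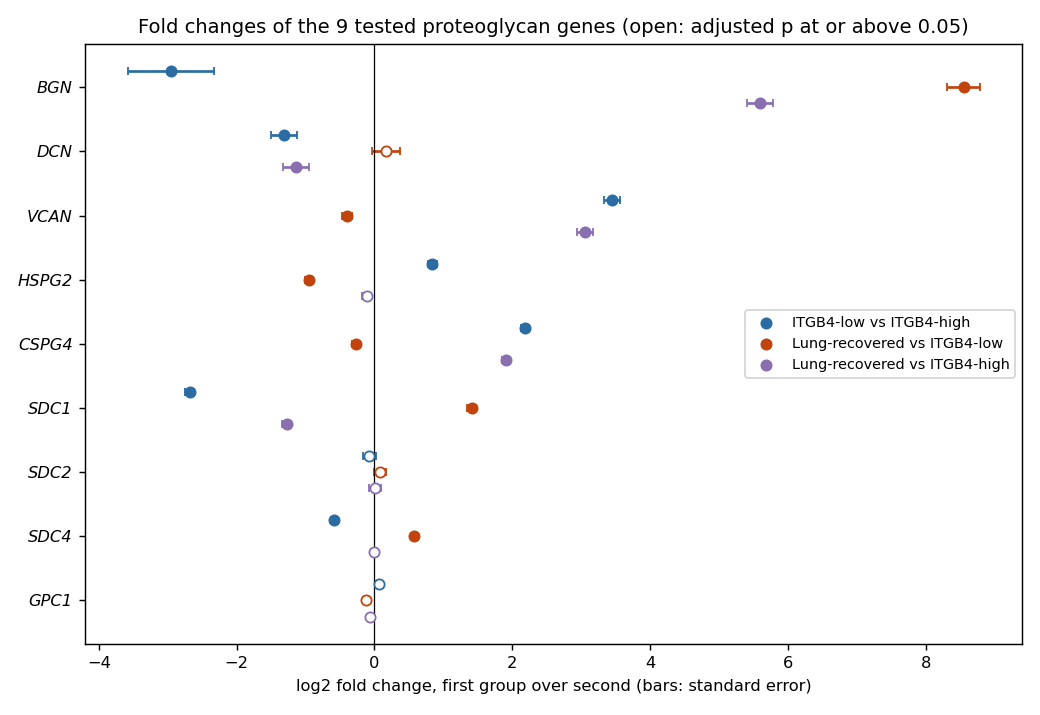
Log2 difference of each tested proteoglycan in the 3 comparisons, with the standard error as bars and open points where not called. Points right of 0 are higher in the first-named group. SDC1, SDC4 and BGN lie right of 0 for lung-recovered against ITGB4-low and VCAN, CSPG4 and HSPG2 left of it. The fitted BGN values against ITGB4-low rest on 3 counts and depend on the prior count.

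Levels can be set between genes only per length, so CPM was divided by the kilobases of exon in GENCODE 29. SDC4 came first in every group, at 122 ± 3.46 CPM per kb in lung-recovered cells (SD, n = 3), 82.0 ± 0.713 in ITGB4-low cells (n = 3) and 123 ± 1.09 in ITGB4-high cells (n = 2). In lung-recovered cells the order after SDC4 was GPC1 (42.2 CPM per kb), SDC1 (26.7), CSPG4 (22.3), HSPG2 (18.3), BGN (7.66), SDC2 (5.88), VCAN (1.53), DCN (0.206) and LUM (0.0224). In ITGB4-low cells it was GPC1 (45.7), HSPG2 (35.5), CSPG4 (27), SDC1 (10.02), SDC2 (5.56), VCAN (2.01), DCN (0.181), BGN (0.0184) and LUM (0.0045). In ITGB4-high cells it was SDC1 (64.5), GPC1 (43.9), HSPG2 (19.8), CSPG4 (5.95), SDC2 (5.86), DCN (0.456), VCAN (0.183), BGN (0.157) and LUM at 0. Neighbours in these orders did not overlap, except CSPG4 with SDC2 and VCAN with BGN in ITGB4-high cells. With the length of the longest coding transcript in place of all exons, GPC1 moved above SDC1 and SDC2 above CSPG4 in ITGB4-high cells, HSPG2 moved above CSPG4 in lung-recovered cells, and SDC4 still came first.

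**Figure D3:**
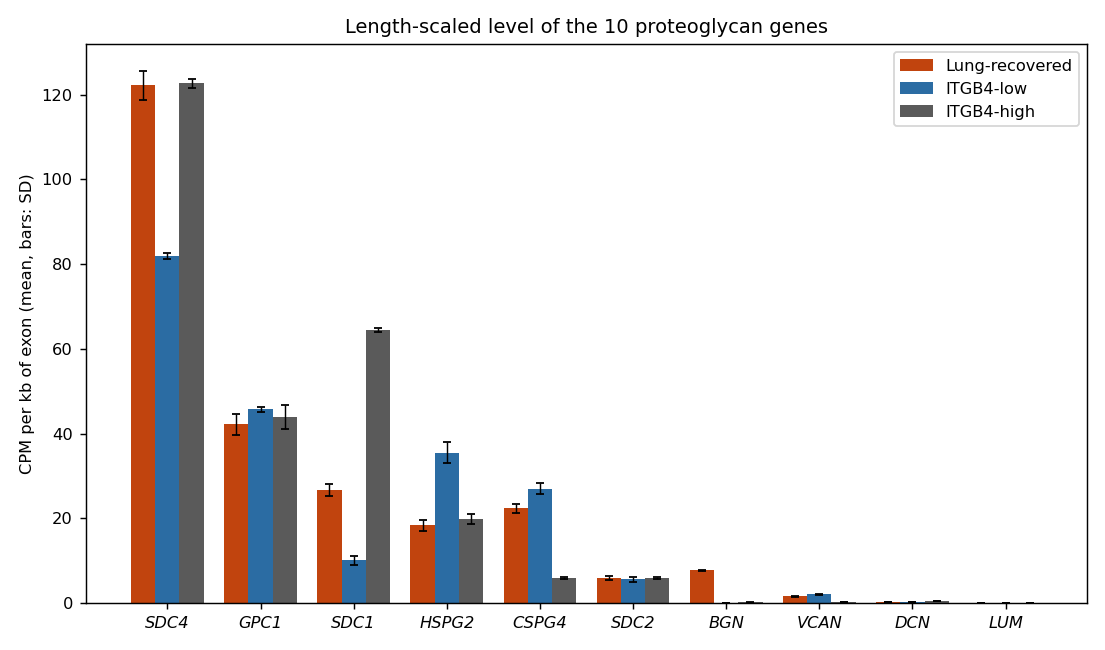
Length-scaled level of the 10 proteoglycans (CPM per kb of exon, linear axis from 0) in lung-recovered, ITGB4-low and ITGB4-high libraries. SDC4 leads each group. SDC1 is next in ITGB4-high cells, while GPC1 is next in both groups of clone 1.

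Within a library, the balance of the core proteins differed between the groups. Per length, SDC1 stood at 0.218 ± 0.00577 of SDC4 in lung-recovered cells (SD, n = 3), 0.122 ± 0.0142 in ITGB4-low cells (n = 3) and 0.525 ± 0.00137 in ITGB4-high cells (n = 2). CSPG4 stood at 0.837 ± 0.00632 of SDC1 in lung-recovered cells, 2.73 ± 0.453 in ITGB4-low cells and 0.0923 ± 0.00490 in ITGB4-high cells. The 10 core proteins summed to 241 to 258 CPM per kb in the lung-recovered libraries, 207 to 210 in the ITGB4-low libraries and 261 to 266 in the ITGB4-high libraries. SDC4 made up 49.5% of the sum in lung-recovered cells, 39.4% in ITGB4-low cells and 46.6% in ITGB4-high cells.

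The tested genes within 5 Mb of each proteoglycan were examined to see whether its region moved as a whole. Their median log2 difference lay between -0.10 and 0.23 for all 10 proteoglycans in all 3 comparisons. The value of 0.23 was that of the neighbours of SDC1 in ITGB4-low against ITGB4-high, where SDC1 itself stood at -2.68.

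RefSeq promoter windows (GRCh38.p14, 250 bases before the RefSeq start) were found for 7 of the 10. DCN, LUM and SDC2 had none. The windows of BGN, VCAN, CSPG4 and SDC4 are shown because BGN, VCAN and CSPG4 had large differences between groups and SDC4 had the highest level per length. Those of HSPG2, GPC1 and SDC1 are not printed, though SDC1 also differed, at -2.68 for ITGB4-low against ITGB4-high. They lie at chrX:153494730-153494979 on the plus strand (BGN), chr5:83471494-83471743 on the plus strand (VCAN), chr15:75712849-75713098 on the minus strand (CSPG4) and chr20:45348425-45348674 on the minus strand (SDC4). The RefSeq start was not always the gene start given above. VCAN was placed at chr5:83471465-83582303, so its whole window lies inside the gene and not before it. The BGN window runs past the gene start of 153494939. Capitals mark the GC box GGGCGG or the E-box CACCTG on either strand.
BGN: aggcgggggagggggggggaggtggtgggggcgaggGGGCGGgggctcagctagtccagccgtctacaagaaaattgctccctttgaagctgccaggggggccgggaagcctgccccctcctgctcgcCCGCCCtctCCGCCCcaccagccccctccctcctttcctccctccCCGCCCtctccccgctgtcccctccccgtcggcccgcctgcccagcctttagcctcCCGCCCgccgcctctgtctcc
VCAN: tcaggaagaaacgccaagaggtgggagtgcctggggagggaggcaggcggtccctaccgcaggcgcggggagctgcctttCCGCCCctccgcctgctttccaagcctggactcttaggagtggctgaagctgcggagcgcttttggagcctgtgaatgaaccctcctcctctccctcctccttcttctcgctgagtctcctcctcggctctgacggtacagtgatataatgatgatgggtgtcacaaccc
CSPG4: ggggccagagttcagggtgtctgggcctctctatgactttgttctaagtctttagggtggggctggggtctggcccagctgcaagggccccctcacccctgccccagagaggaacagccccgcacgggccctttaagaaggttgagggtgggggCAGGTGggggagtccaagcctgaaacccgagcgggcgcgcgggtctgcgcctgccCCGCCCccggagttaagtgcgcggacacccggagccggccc
SDC4: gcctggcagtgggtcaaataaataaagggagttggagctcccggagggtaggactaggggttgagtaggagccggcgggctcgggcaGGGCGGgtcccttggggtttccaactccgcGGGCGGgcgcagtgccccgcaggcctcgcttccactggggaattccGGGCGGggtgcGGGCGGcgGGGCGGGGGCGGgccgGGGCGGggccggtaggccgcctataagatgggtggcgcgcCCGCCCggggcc
Counting overlapping matches, the GC box occurred 5 times in the BGN window and 8 times in the SDC4 window, and once each in those of VCAN and CSPG4. The E-box occurred once in the CSPG4 window. Among the windows not printed, HSPG2 held 8 GC boxes. Window 1 of SDC1, whose groups stood in the opposite order to those of CSPG4, held 1 GC box and 1 E-box. Of 35116 promoter windows of this length, 42.6% held at least 1 GC box, 4.15% held 5 or more, and 17.5% held the E-box. The AP-1 motif TGANTCA (6.57% of windows) and the TATA box TATAAA (10.7%) were in none of the members' windows. The VCAN and CSPG4 windows, whose genes had the same order of groups, shared 1 GC box each and differed in the E-box. A match is a description of these letters and not evidence of binding.

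The genes with the most similar profile were found for each tested proteoglycan as the smallest root mean square difference of centred log2 CPM over the 8 libraries, among 12972 genes. KRT5, a basal keratin, was nearest to BGN (0.46), PPP1R14C to SDC1 (0.11), NAB1 to SDC4 (0.03), ZNF365 to VCAN (0.12), LOXL1-AS1 to CSPG4 (0.06), LPP to HSPG2 (0.06), KCNMB2-AS1 to DCN (0.15), CAPNS1 to GPC1 (0.03) and WRB to SDC2 (0.03). The likeness for BGN was the loosest of the 9, and GPC1 and SDC2 had nearly flat profiles. These libraries form 3 groups, and likeness over them is a description only.

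The other genes of proteoglycan biology were listed by what they do. Of 41 other core proteins 15 were tested, and in lung-recovered cells against ITGB4-low 6 were called higher and 5 lower (median log2 difference -0.11, beside 0.00031 for all genes, of which 14.7% were called higher and 15.4% lower). SDC3, the remaining syndecan, was at 207, 238 and 202 CPM in the lung-recovered libraries, 126, 136 and 129 CPM in the ITGB4-low libraries and 135 and 125 CPM in the ITGB4-high libraries. It rose in lung-recovered cells by 0.73 against ITGB4-low (SE 0.06, edgeR adjusted p = 3.37e-09) and by 0.73 against ITGB4-high (SE 0.06), and the dish-grown groups overlapped. GPC6, a glypican at a low level, was at 1.85, 1.04 and 1.65 CPM in the lung-recovered libraries, against 0.291, 0.141 and 0.402 CPM in the ITGB4-low ones. THBD (thrombomodulin), at 67.0 ± 2.66 CPM in lung-recovered and 41.1 ± 2.95 CPM in ITGB4-low cells (SD, n = 3 each), was higher by 0.71 (SE 0.06). ECM2 fell by 0.51 and TGFBR3, the TGF-beta co-receptor betaglycan, fell by 0.48 in lung-recovered cells against ITGB4-low.

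In ITGB4-low cells against ITGB4-high, 6 other core proteins were called higher and 4 lower (median 0.08, beside 0.00090 for all genes, of which 28.6% were called higher and 27.6% lower). SRGN (serglycin), a proteoglycan of secretory granules, was at 154 ± 2.61 CPM in ITGB4-low cells (n = 3) and 74.5 ± 2.01 CPM in ITGB4-high cells (n = 2), a log2 difference of 1.05 (SE 0.05). TSKU, a small leucine-rich protein, stood at 38.0 CPM in ITGB4-low cells and 78.1 CPM in ITGB4-high cells. Lung-recovered cells against ITGB4-high had 6 called higher and 3 lower (median 0.32, beside 0.0051 for all genes, of which 26.2% were called higher and 25.0% lower). Without lung-recovered library 1 or without ITGB4-high library 1 the lower ones came to 1, since THBD (-0.14, SE 0.06) and SPOCK1 (-0.18, SE 0.06) lost their calls. THBD also lost it without lung-recovered library 2, without ITGB4-high library 2, without the filter, and with upper-quartile scaling, DESeq2 or the replicate block.

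The enzymes that build and sulfate the chains numbered 57, of which 44 were tested. ITGB4-low cells against ITGB4-high had 21 higher and 15 lower (median 0.11), beside 28.6% and 27.6% of all genes. Lung-recovered cells against ITGB4-low had 6 higher and 12 lower (0.01), beside 14.7% and 15.4%, and lung-recovered cells against ITGB4-high had 16 higher and 11 lower (0.07), beside 26.2% and 25.0%. CHST11, which sulfates chondroitin, was at 38.2, 35.7 and 37.2 CPM in the lung-recovered libraries, 13.7, 14.9 and 17.9 CPM in the ITGB4-low libraries and 40.9 and 39.4 CPM in the ITGB4-high libraries. It was higher in lung-recovered than in ITGB4-low cells by 1.25 on the log2 scale (SE 0.08, edgeR adjusted p = 1.43e-10) and lower in ITGB4-low than in ITGB4-high cells by -1.37 (SE 0.08). CHST15 had the same directions, at 0.70 and -0.56.

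HS6ST3, a heparan sulfate 6-O-sulfotransferase, went the other way, at 17.2 ± 1.01 CPM in lung-recovered cells, 59.6 ± 5.18 CPM in ITGB4-low cells (SD, n = 3 each) and 24.3 ± 0.450 CPM in ITGB4-high cells (n = 2). CHST2 and the heparan sulfate N-deacetylase NDST1 were both lower in lung-recovered cells than in either dish-grown group, with CHST2 at 65.0 CPM in lung-recovered, 112 CPM in ITGB4-low and 119 CPM in ITGB4-high cells. PAPSS2, which makes the sulfate donor, had 101 counts in lung-recovered cells, 151 in ITGB4-low cells and 1 in ITGB4-high cells. ITGB4-low stood above ITGB4-high by a ratio of 118 (95% counting interval 20.9 to 4691). The single count was in ITGB4-high library 1, and the fitted log2 difference, which depends on the prior count, was 8.73 without that library and 5.71 without ITGB4-high library 2. Its difference between lung-recovered and ITGB4-low cells (-0.67, SE 0.22) was called, and lost its call without lung-recovered library 1 or 3, without ITGB4-low library 2 or 3, and with DESeq2. HS3ST3A1, a 3-O-sulfotransferase, was higher in ITGB4-low than in ITGB4-high cells by 1.72 and in lung-recovered than in ITGB4-high cells by 1.63, and the median of its tested neighbours within 5 Mb was 0.82 and 0.85 in those comparisons. How much of the HS3ST3A1 difference goes with its region was not tested.

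**Figure D4:**
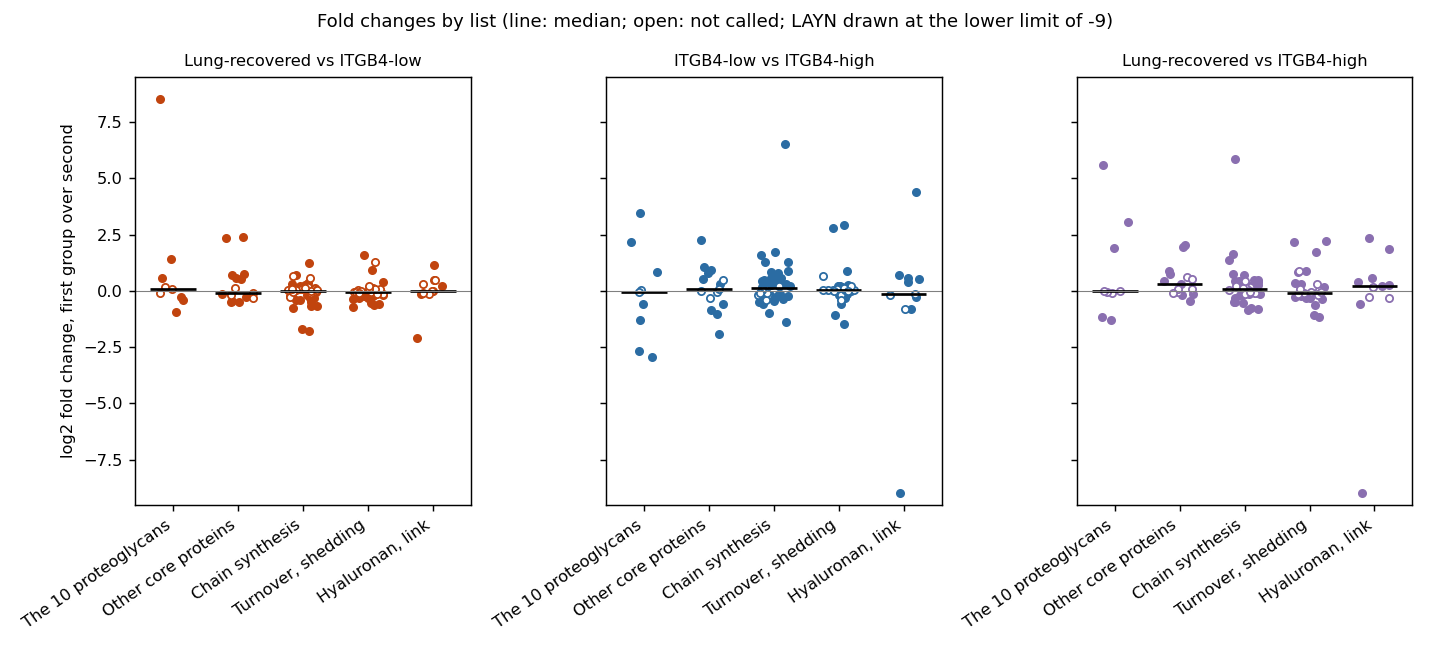
Log2 difference of every tested gene of the 10 proteoglycans and the 4 pathway lists in the 3 comparisons, 1 point per gene (open where not called), with the median as a line. LAYN, at 0 counts in clone 1, is drawn at the lower limit of the axis. The medians lie between -0.14 and 0.32, and each list holds genes on both sides of 0.

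Among 37 genes of proteoglycan turnover and shedding, 28 were tested. Lung-recovered cells against ITGB4-low had 4 higher and 10 lower (median -0.07), beside 14.7% and 15.4% of all genes, and ITGB4-low cells against ITGB4-high had 8 higher and 6 lower (0.03), beside 28.6% and 27.6%. Lung-recovered cells against ITGB4-high had 8 higher and 10 lower (-0.07), beside 26.2% and 25.0%, where the 10 lower ones became 6 without ITGB4-high library 1. TIMP3, an inhibitor of the proteases that shed syndecans, was at 135, 132 and 134 CPM in the lung-recovered libraries, 41.0, 45.6 and 45.5 CPM in the ITGB4-low libraries and 40.3 and 41.2 CPM in the ITGB4-high libraries. It rose in lung-recovered cells by 1.60 against ITGB4-low (SE 0.05, edgeR adjusted p = 2.22e-15) and by 1.71 against ITGB4-high (SE 0.06). The gelatinase MMP2 had the order of VCAN and CSPG4, at 150 ± 0.253 CPM in lung-recovered cells, 231 ± 3.10 CPM in ITGB4-low cells (SD, n = 3 each) and 33.4 ± 0.994 CPM in ITGB4-high cells (n = 2). MMP16 followed it at 6.50, 10.7 and 1.40 CPM in the lung-recovered, ITGB4-low and ITGB4-high groups. ADAMTS9, which cleaves versican and aggrecan, was at 69.3 CPM in lung-recovered cells, 52.7 CPM in ITGB4-low cells and 145 CPM in ITGB4-high cells. The calls of SULF1 (0.95, SE 0.32) and ADAMTS1 (-0.59, SE 0.17) between lung-recovered and ITGB4-low cells, both under 6 CPM, each ended when single libraries were left out.

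Of 25 genes of hyaluronan handling and link proteins 11 were tested. Lung-recovered cells against ITGB4-low had 3 higher and 2 lower (median 0.0), beside 14.7% and 15.4% of all genes, and ITGB4-low cells against ITGB4-high had 5 higher and 3 lower (-0.14), beside 28.6% and 27.6%. Lung-recovered cells against ITGB4-high had 6 higher and 2 lower (0.20), beside 26.2% and 25.0%. CD44, the hyaluronan receptor, was at 662 ± 16.9 CPM in lung-recovered cells, 669 ± 10.4 CPM in ITGB4-low cells (SD, n = 3 each) and 446 ± 0.0802 CPM in ITGB4-high cells (n = 2). TNFAIP6, which links hyaluronan to protein chains in inflamed tissue, was at 15.7, 17.9 and 15.6 CPM in the lung-recovered libraries, 6.26, 7.12 and 8.40 CPM in the ITGB4-low libraries and 4.0 and 5.1 CPM in the ITGB4-high libraries. It rose in lung-recovered cells by 1.16 against ITGB4-low (SE 0.11, edgeR adjusted p = 1.02e-07). CEMIP, which takes part in hyaluronan breakdown, stood at 0.602 CPM in lung-recovered cells, 2.58 CPM in ITGB4-low cells and 0.116 CPM in ITGB4-high cells. LAYN, another hyaluronan receptor, had 0 counts in every lung-recovered and ITGB4-low library against 781 counts in the ITGB4-high libraries. With a floor of 3 counts over the group it was at least 357-fold lower in lung-recovered and at least 333-fold lower in ITGB4-low than in ITGB4-high cells, and its neighbours within 5 Mb had medians of -0.45 and -0.39. The call of HMMR between lung-recovered and ITGB4-low cells (-0.12, SE 0.05) was lost when any lung-recovered library, or ITGB4-low library 2 or 3, was left out.

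**Figure D5:**
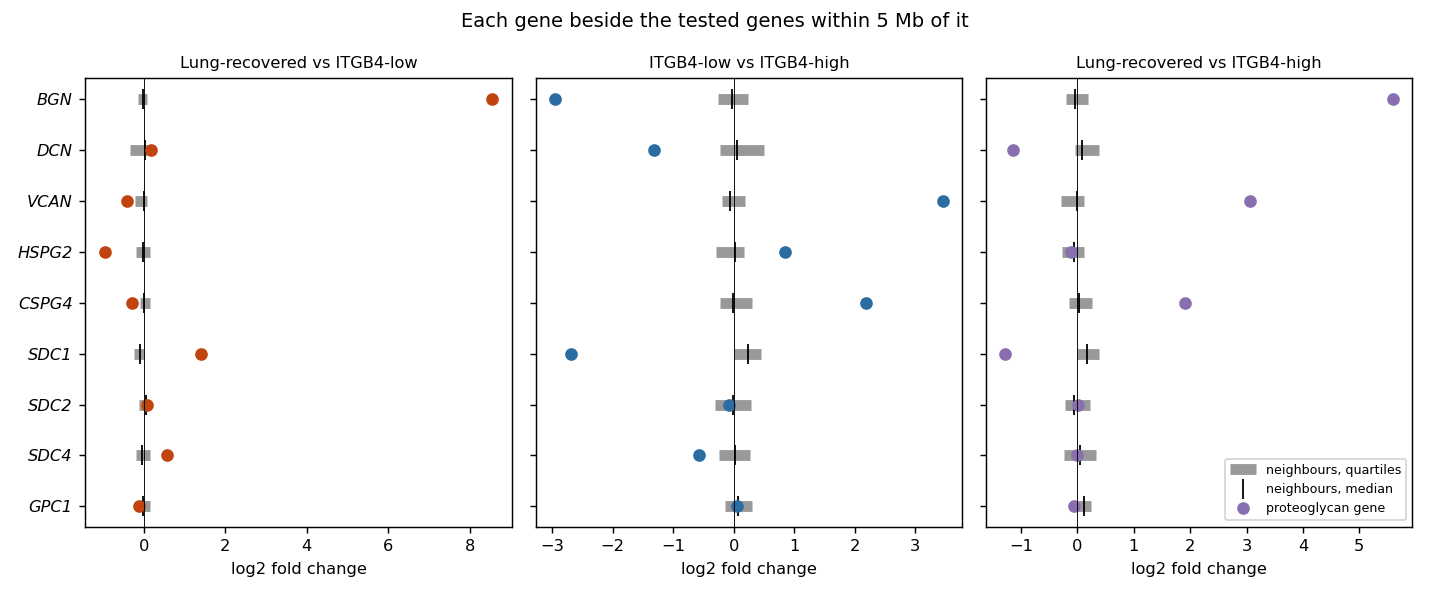
Log2 difference of each proteoglycan beside the median of tested genes within 5 Mb, with quartiles, in the 3 comparisons. The neighbours' medians stay between -0.10 and 0.23 while BGN, VCAN, SDC1 and CSPG4 lie far from them in at least 2 of the 3.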

How the data were processed

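The authors deposited 1 table of raw counts, whole numbers per gene and library that were not normalised, for 58336 Ensembl identifiers. Per the labels' protocols, the libraries were made from poly(A) RNA with a strand-marking kit. STAR 2.7.1a and hg38 stand in the submitters' processing notes. How reads were counted, with which strand setting and annotation, is not given in the sources used here. Overlapping or near-identical genes thus have uncertain counts.

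Of the identifiers, 58216 matched GENCODE 29, which gave symbols, 1-based coordinates and exon lengths. Titles gave the groups. A single edgeR 4.0.16 model (R 4.3.3) with 1 mean per group took all 8 libraries, after filterByExpr (15220 genes, 99.9% of counts) and TMM scaling (factors 0.975 to 1.012). The quasi-likelihood F test compared the groups, with Benjamini-Hochberg adjustment over all genes tested. A standard error is the log2 difference divided by the square root of F. Biological variation was 0.0452 (coefficient), with 5 residual degrees of freedom. Folds against 0 counts use a floor of 3 counts per group, and those against 1 to 3 counts an exact binomial 95% interval. The depth of 20.41 to 27.22 M counts sets these limits. The script was tested on simulated data.

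The members, the 4 pathway lists and the tests were chosen with earlier results of these data known. Beside the members and ITGB4, genes named from the pathway lists came from the called genes with the largest change. Up to 3 were taken per list, comparison and direction, among genes with a mean of at least 1 CPM in a group. Not all of these are given above. In ITGB4-low against ITGB4-high, CSPG5 had the largest rise of these other core proteins (log2 difference 2.28) and GPC6 the largest fall (-1.90). Alternatives were RLE and upper-quartile scaling, no filter, DESeq2 1.42.0, limma-voom (limma 3.58.1), a fit of the 2 groups alone, a replicate block and leaving out each library. Libraries of the same group differed by more than sampling noise in every pair, so none was treated as a copy.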

Additional observations from a re-analysis of the deposited data

How the results depend on the processing

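Under RLE or upper-quartile scaling, no filter on low counts, DESeq2, limma-voom, a fit of the 2 groups alone and the replicate block, 249 of 252 counts of called genes stayed within 1.5 times the reported count. The 3 that did not were the hyaluronan and link genes lower in lung-recovered than in ITGB4-low cells, 2 as reported and 1 without the filter, with DESeq2 and with the replicate block. Of the fold changes named, 687 kept their direction and their call under these settings, 8 lost the call, 1 gained it and 3 reversed.

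The replicate block was used as an alternative only, because no label ties equal numbers to a culture or an animal. Deviations from the group mean correlated at -0.075 to 0.040 between libraries of the same number and -0.041 to 0.075 between different numbers. With 2 libraries in ITGB4-high their deviations mirror each other, so these correlations cannot decide on pairing. With the block, SDC2 in lung-recovered against ITGB4-high cells was -0.050 and SDC4 was 0.0017. With upper-quartile scaling SDC4 was 0.0057. No alternative scaling moved the median of all genes beyond 0.024.

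Leaving out 1 library kept 184 of 192 counts within 1.5 times. Of the fold changes, 494 kept direction and call, 26 lost the call, 2 gained it and 11 reversed. The lower calls of lung-recovered against ITGB4-high ran from 1 to 3 for other core proteins and from 6 to 10 for turnover genes, and the lower hyaluronan genes of lung-recovered against ITGB4-low ran from 1 to 2. Reversals were confined to differences that were not called. The ranges were -0.012 to 0.12 for GPC1 in ITGB4-low against ITGB4-high, -0.13 to 0.0032 for GPC1 in lung-recovered against ITGB4-high, -0.13 to 0.015 for SDC2 in ITGB4-low against ITGB4-high, -0.0076 to 0.15 for SDC2 in lung-recovered against ITGB4-low, -0.043 to 0.081 for SDC2 in lung-recovered against ITGB4-high, -0.027 to 0.012 for SDC4 in lung-recovered against ITGB4-high and -0.10 to 0.063 for ITGB4 in lung-recovered against ITGB4-high. Depth limits LUM and the ITGB4-low level of BGN, which rest on at most 5 counts per group. The causes of these changes were not tested.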
